A study of Drosophila melanogaster with 7 samples.

Results

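The prolyl 4-hydroxylase alpha genes of Drosophila melanogaster were followed in larval salivary glands whose cohesin ring had been opened and in glands whose ring stayed intact. The family was taken by name, as every probe whose annotated or current gene symbol was PH4alphaSG1, PH4alphaSG2, PH4alphaEFB, PH4alphaMP, PH4alphaPV, PH4alphaNE1, PH4alphaNE2 or PH4alphaNE3. Each of these 8 genes had 1 probe, which gave 8 of the 14569 probes on the arrays and 8 of 11610 genes with a named probe. The rule uses gene names alone.

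The collagen prolyl 4-hydroxylase works in the endoplasmic reticulum, where it hydroxylates proline residues in collagen and collagen-like chains so that they form a stable triple helix. It is built from alpha subunits, which carry the catalytic site and need iron, 2-oxoglutarate and ascorbate, and from beta subunits, which are protein disulfide isomerase. Flies have many alpha subunit genes, and their names recall where the transcript was seen in the embryo: SG for the salivary gland, EFB for epidermis and fat body, MP for the mouthparts, PV for the proventriculus and NE for genes with no embryonic signal. In the embryonic gland, SG1 and SG2 are known targets of the transcription factors Fork head and Sage, and they are needed for a lumen of even width.

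Glands of crawling larvae of the third instar were compared on 7 arrays, each of which carried 1 sample with cleaved and 1 sample with intact Rad21, the subunit that closes the cohesin ring. All animals were w1118 with 1 copy of hs-TEV, a transgene that makes the TEV protease after heat shock, and all carried the Rad21ex3 allele. Cleaved glands had Rad21(TEV), a Rad21 with TEV sites, on a Rad21ex15 chromosome. Intact glands had genomic Rad21 on 3 arrays (1.1, 1.2 and 1.3) or the transgene tgRad21 on a Rad21ex3 chromosome on 4 arrays (2.1 to 2.4). Heat shock lasted 45 min at 37 °C, and RNA was taken 10 to 12 h later. The protease was therefore induced in every gland, the samples of a pair differed in genotype as well as in cleavage, and these differences cannot be told apart. RNA was bulk gland RNA, in which fewer cells of a type and less RNA per cell cannot be told apart.

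The values are log ratios between the samples of an array, read as log2, with the sign as deposited. The labels do not name the numerator. A positive ratio likely means more transcript in glands with cleaved Rad21, because the ecdysone receptor gene, known from other work to be lower without cohesin, was negative on these arrays. If the true direction is the opposite, every sign below turns and every size and test stays. A ratio holds no level, so the data cannot show whether a member is abundant or barely transcribed in the gland, and the gland's own markers could not be checked as levels. Array 1.2 was the quietest, with 6.02% of its probes more than 1 log2 unit from 0, and array 2.1 the widest, with 27.3%. The arrays' medians lay between −0.22 and 0.25.

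PH4alphaEFB was the 1 member of 8 that passed the test (limma with a dye term, adjusted p under 0.05 over all probes). Over all probes, 7.95% passed, 4.15% with a positive and 3.8% with a negative estimate. All 8 member estimates were positive, from 0.11 for PV to 1.25 for SG1 with a median of 0.37, while 52.9% of all probes had a positive estimate and their median was 0.02. The sign was not stable for the members near 0: PV lay at −0.064 and NE3 at −0.048 with array quality weights, and leaving out 1 array turned PV (to −0.17 without 2.2 and −0.089 without 2.3), NE2 (−0.089 without 2.3) and NE3 (−0.14 without 1.3). At an unadjusted p under 0.05 in limma there were 3 members, SG1, EFB and NE1, where 20% of all probes reached that level.

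**Figure D1:**
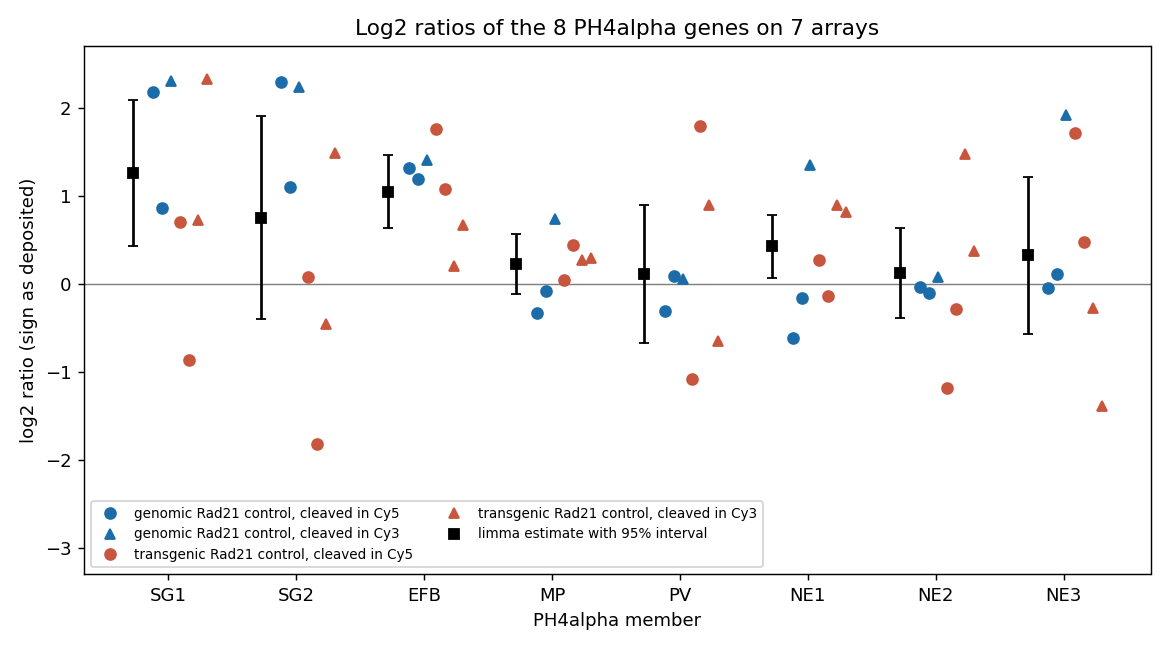
Log2 ratio (sign as deposited, y axis) of each PH4alpha gene (x axis) on the 7 arrays, coloured by the kind of intact control and shaped by the dye of the cleaved sample, with the limma estimate and its 95% interval as black squares and bars. EFB is positive on every array, SG1 and SG2 spread from below −0.8 to above 2.2, and NE1 separates by dye.

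Of the gland members, PH4alphaSG1 had the highest estimate of the family, 1.25 ± 0.36 (SE, n = 7 arrays), with a 95% interval from 0.42 to 2.08, yet it did not pass (adjusted p = 0.0782 with limma). Its log2 ratio was 2.18, 0.86 and 2.3 on the genomic Rad21 arrays 1.1, 1.2 and 1.3, and 0.70, −0.87, 0.73 and 2.33 on the transgenic Rad21 arrays 2.1, 2.2, 2.3 and 2.4. Array 2.2 was thus the single array below 0, and arrays 1.1, 1.3 and 2.4 were the high ones. Without array 2.2 the estimate was 1.52 and passed (adjusted p = 0.0355 with limma). With a separate effect for each set of arrays it was 1.36 (adjusted p = 0.0472), and with array quality weights 1.5 (adjusted p = 0.0195). Without any other array the adjusted p lay between 0.0592 and 0.233, and median centring, scaling or a fit without the dye term left it above 0.1.

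PH4alphaSG2 moved over the arrays like SG1 but further. On the genomic Rad21 arrays its log2 ratio was 2.29, 1.1 and 2.24, and on arrays 2.1 to 2.4 it was 0.07, −1.82, −0.45 and 1.48. Array 2.2 was again the lowest, array 2.3 was also negative, and the 3 genomic Rad21 arrays and array 2.4 were the high ones. The estimate was 0.75 ± 0.50 (SE, n = 7, 95% interval −0.40 to 1.90), with the highest SE of the family, and it did not pass (adjusted p = 0.516 with limma). It was 0.44 without array 1.1 and 0.46 without 1.3, and 1.14 without array 2.3. On the genomic Rad21 arrays alone SG2 lay at 1.97 and SG1 at 1.91. That fit holds a single array with the cleaved sample in Cy3, which a dye term fits exactly, so its p-values are not given. On the transgenic arrays alone SG2 lay at −0.18 and SG1 at 0.72 and neither passed. SG2 and its neighbour MP overlap in the gene table, and the positions of the probes were not used here.

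The gland members correlated over the 7 arrays with Pearson's r of 0.942 (exact permutation p = 0.00238, 0.0667 adjusted over the 28 pairs of members) and Spearman's rho of 0.821 (exact permutation p = 0.0341, adjusted 0.619). Without arrays 2.2 and 2.4, the farthest from the median for SG1, r was 0.917. SG2 ranked 83rd of 11609 named genes by its correlation with SG1, so that 0.715% of genes tracked SG1 at least as closely, and 220 genes (1.90%) did so with r above 0.9. None of the 28 pairs had an adjusted p under 0.05. The next in size, EFB with NE2, had r of −0.917 (exact permutation p = 0.00675, adjusted 0.0944) but rho of −0.643 (exact permutation p = 0.139, adjusted 0.733), and r was −0.521 without arrays 2.1 and 2.3. The sets of arrays hold 3 and 4 arrays, too few for a correlation within a set. The permutations of correlations, here and below, shuffle all 7 arrays without regard to set or dye. An offset shared by a set or a dye orientation can therefore enter their p-values.

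The difference between the gland genes was compared array by array. On the genomic Rad21 arrays SG1 minus SG2 was −0.11, −0.24 and 0.07, against 0.63, 0.95, 1.18 and 0.85 on arrays 2.1 to 2.4. The transgenic Rad21 arrays all lay above the genomic ones, at 0.90 ± 0.23 (SD, n = 4) against −0.10 ± 0.16 (SD, n = 3). This separation was noticed in the values and is given as a description. An exact permutation over 35 regroupings of the arrays gave p = 0.0286, the smallest possible. Because the separation was picked after it was seen, that p is not read as evidence for it. How often the difference of other gene pairs separates the sets in this way was not computed. Over all arrays the difference was 0.47 ± 0.56 (SD, n = 7) and positive on 5 of 7, and it did not pass a two-sided exact sign-flip permutation test (p = 0.109, smallest possible 0.0156).

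**Figure D2:**
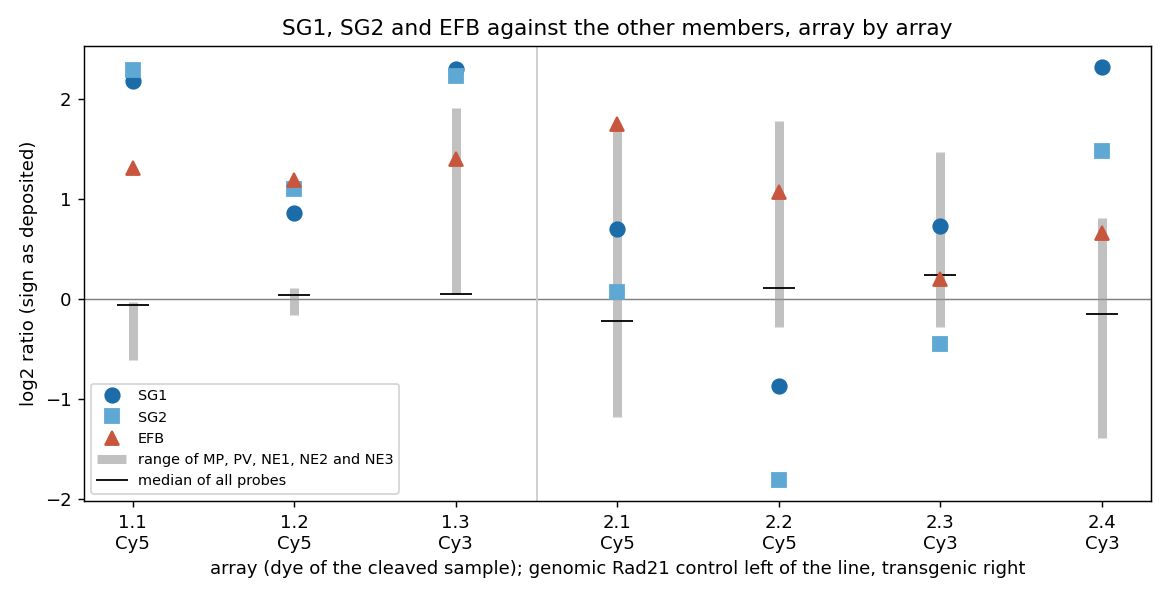
Log2 ratios (y axis) of SG1, SG2 and EFB on each array (x axis, with the dye of the cleaved sample), with the range of the other 5 members as a grey bar and the median of all probes as a dash. SG1 and SG2 lie above the grey bar on arrays 1.1, 1.2, 1.3 and 2.4 and below the grey bar on array 2.2.

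Against the other 6 members, the mean of SG1 and SG2 was higher on 5 of 7 arrays. The SG mean minus the mean of the others was 2.24, 0.81 and 1.35 on the genomic Rad21 arrays, and 0.14, −1.90, −0.44 and 1.89 on arrays 2.1 to 2.4. The gland members thus stood above the rest of the family on all 3 genomic Rad21 arrays and on array 2.4, close to it on 2.1 and below it on 2.2 and 2.3. The mean over all arrays was 0.58 ± 1.44 (SD, n = 7), so the spread between arrays was larger than the difference. It is given as a description with no test, and it was 0.997 without array 2.2 and 0.31 without array 1.1.

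The kind of intact control was tested as a difference between the sets in the same model. For SG2 the genomic Rad21 arrays gave 2.05 ± 0.52 and the transgenic ones −0.18 ± 0.44 (SE, n = 3 and 4), a difference of 2.23 ± 0.68 with a 95% interval from 0.63 to 3.83, which did not pass over all probes (adjusted p = 0.9998 with limma). For SG1 the set values were 1.99 ± 0.47 and 0.72 ± 0.40, and the difference of 1.27 ± 0.61 had an interval from −0.17 to 2.72. SG2 was the only member with an unadjusted p under 0.05 in this limma test, which 4.26% of all probes reached. Over all probes 0 (0%) passed the adjusted test, so the set difference was not detected for any member. The differences of the other members were between −0.31 for PV and 0.46 for NE3, each with an interval that contains 0.

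Some gland markers, 5 of 11 probes, correlated with SG1 and SG2 over the arrays past the test on Pearson's r. The other 6 did not pass, which with 7 arrays does not show that they moved apart. Over all named genes, 220 (1.90%) had r above 0.9 with SG1 and 134 (1.15%) with SG2. The share of all genes at the lower r of some of these markers was not computed. The count is therefore not read as a link particular to gland genes. The new glue genes ng1, ng2 and ng3 encode small secreted proteins of the larval gland, and ng1 and ng2 are close copies whose probes may share signal. On the genomic Rad21 arrays the log2 ratio of ng1 was 4.83, 0.10 and 4.58, against 0.24, −4.74, −5.42 and 5.85 on arrays 2.1 to 2.4. Arrays 1.1, 1.3 and 2.4 were high and 2.2 and 2.3 low for ng1, as they were for SG2. The Fork head gene fkh had 0.37, −0.30 and 1.34 on the genomic Rad21 arrays and −0.69, −1.07, −0.32 and 0.17 on arrays 2.1 to 2.4.

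Over 7 arrays, SG2 correlated with ng2 at r = 0.976 (exact permutation p = 0.000198, the smallest that exact enumeration can give, adjusted 0.00437 over 22 correlations) and with rho of 1 (exact permutation p = 0.000397, adjusted 0.00873). For SG1 the closest of the gland list was ng3, with r of 0.942 (exact permutation p = 0.00258, adjusted 0.0142) and rho of 0.929 (exact permutation p = 0.00675, adjusted 0.0451). With fkh, r was 0.865 for SG1 (exact permutation p = 0.0169, adjusted 0.0371) and 0.858 for SG2 (exact permutation p = 0.0135, adjusted 0.0330), with rho of 0.893 (exact permutation p = 0.0123, adjusted 0.0451) and 0.929 (exact permutation p = 0.00675, adjusted 0.0451). These pairs kept r of 0.836 to 0.918 without the 2 arrays farthest from the median. The 4 ng genes and fkh passed on Pearson's r with both SG members. On rho, ng1, ng2 and ng4 did not pass with SG1 (exact permutation adjusted p 0.106, 0.0834 and 0.0834), nor ng1 with SG2 (exact permutation adjusted p = 0.0834). The markers Sgs1, Sgs4, Sgs5, Sgs5bis, Eig71Ee and sage did not pass with either member. For sage r was 0.659 with SG1 and 0.551 with SG2, and 0.858 and 0.623 without the 2 farthest arrays. For several glue genes r was negative: −0.645 and −0.578 for Sgs5bis with SG1 and SG2, −0.388 and −0.374 for Sgs1, and −0.355 and −0.143 for Sgs4. The list was compared after the shared pattern was known, and all these ratios come from the same 7 arrays, so whatever sets an array apart enters every one of them. The permutations ignored set and dye, so these p-values do not separate likeness between single arrays from an offset between the sets. The 22 correlations are not independent either, since SG1 and SG2 follow each other. Whether the stage or makeup of the paired glands had a part in the pattern was not tested.

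Other genes with a pattern like SG1 were GILT1, a thiol reductase gene of the lysosomal GILT family (r = 0.994), CG1578 (0.988), SrpRalpha, the docking receptor of the signal recognition particle (0.984), CG18507 (0.984) and Pfk, the phosphofructokinase of glycolysis (0.982). For SG2 they were CG31704 (0.987), ine, a transporter-like membrane protein gene (0.982), CG18507 (0.979), r, the pyrimidine synthesis gene rudimentary (0.978), and CG1307 (0.978). Likeness is Pearson's r over 7 arrays and leaves out the overall offset. The estimate of SrpRalpha was −0.76 ± 0.26 and that of CG31704 −2.79 ± 0.33, so a shared pattern did not mean a shared sign. Among these genes CG31704 alone passed the test (adjusted p = 0.00282 with limma).

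PH4alphaEFB, the member named for epidermis and fat body, had a positive estimate of 1.04 ± 0.18 (SE, n = 7 arrays, 95% interval 0.63 to 1.46, adjusted p = 0.0123 with limma). The genomic Rad21 arrays gave it 1.31, 1.19 and 1.40 (log2 ratio), against 1.76, 1.07, 0.20 and 0.66 on arrays 2.1 to 2.4. It was positive on 7 of 7 arrays, as were 6.26% of all probes, and arrays 2.3 and 2.4 were the lowest. On a log2 scale the estimate is a 2.06-fold ratio (1.55 to 2.74). The call was kept without any single array, although only just without array 2.4 (adjusted p = 0.0491 with limma), and relative to its array's median EFB lay at −0.04 on array 2.3. At an adjusted p under 0.01 it was not called, and on the transgenic Rad21 arrays alone the call was lost (0.92, adjusted p = 0.256 with limma). Its estimate on the genomic Rad21 arrays was 1.21 ± 0.29 and on the transgenic ones 0.92 ± 0.24, a difference of 0.29 ± 0.38 (95% interval −0.59 to 1.18). With arrays scaled this difference was 1.02 ± 0.35, and it did not pass either (adjusted p = 0.791 with limma).

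EFB is known in the fat body, a tissue that lies beside the gland, so the fat body markers are given with it. Of 10 probes for 8 fat body genes, 2 were positive past the test, 0 negative, and the median was −0.16. Over all probes 4.15% were called positive and 3.8% negative, and a list this short allows no reading of the count. An Adh probe (−0.91 ± 0.31) did not pass on all arrays but was negative past the test without array 1.3 (adjusted p = 0.0410 with limma) and with array quality weights. The other Adh probes lay at −0.45 ± 0.30 and −0.31 ± 0.31 and did not pass, also without any single array. The positive ones were Apoltp, a lipoprotein gene (0.91 ± 0.19, adjusted p = 0.0278 with limma, lost without array 1.1, 1.2, 1.3, 2.1 or 2.4), and CtsL1, a cathepsin gene not limited to fat body (2.48 ± 0.45, adjusted p = 0.0154, lost without array 2.4). The calls of Apoltp and CtsL1 were also lost with arrays scaled. The larval serum and fat body protein genes Lsp2, Fbp1 and Fbp2 lay at −0.16 ± 0.16, −1.10 ± 0.33 and 0.19 ± 0.18. The median of the list, whose genes differed in sign, ran from −0.23 on array 1.3 to 0.45 on array 1.1. EFB was at 1.40 and 1.31 on these arrays, which are 2 of the 7. No fat body level can be read from ratios, and the part of fat body RNA in the EFB result was not tested.

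PH4alphaMP and PH4alphaPV, named for the mouthparts and the proventriculus, did not pass the test. MP had the narrowest spread, from −0.33 on array 1.1 to 0.74 on array 1.3, and an estimate of 0.23 ± 0.15 (95% interval −0.12 to 0.57). It was negative on 2 of the 3 genomic Rad21 arrays and positive on all 4 transgenic ones. PV ran from −1.08 on array 2.1 to 1.79 on array 2.2, with an estimate of 0.11 ± 0.34 (95% interval −0.67 to 0.89).

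PV also had the highest correlation of the family with the array as a whole. Its log2 ratio correlated with the median of all probes on the array at r = 0.834 (exact permutation p = 0.0208, adjusted 0.167 over 8 members) and rho of 0.929 (exact permutation p = 0.00675, adjusted 0.0540), with r of 0.811 without arrays 2.1 and 2.3. None of the 8 members passed this correlation after adjustment. For SG1, SG2 and EFB r was −0.368, −0.366 and −0.599 (exact permutation adjusted p 0.635, 0.635 and 0.414, with rho of −0.286, −0.429 and −0.536 at adjusted p 0.635, 0.633 and 0.633). That of EFB was 0.60 without arrays 2.1 and 2.3, so it rested on those arrays.

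The members without an embryonic signal, PH4alphaNE1, PH4alphaNE2 and PH4alphaNE3, did not pass either. NE1 had an estimate of 0.43 ± 0.15 (95% interval 0.07 to 0.78, adjusted p = 0.156 with limma). Its log2 ratios divided by dye: they were 1.34, 0.89 and 0.81 on arrays 1.3, 2.3 and 2.4, where the cleaved sample carried Cy3, and −0.61, −0.16, 0.26 and −0.14 on arrays 1.1, 1.2, 2.1 and 2.2, where it carried Cy5. The Cy5 orientation differed by −1.18 ± 0.31 (adjusted p = 0.463 for the dye term with limma). The Cy3 arrays lay above the Cy5 arrays without overlap for NE1 and for NE2, as they did for 6.59% of all probes (12.2% in either direction), and the dye term reached an unadjusted p under 0.05 in limma for these 2 members and 9.92% of all probes. Without the dye term NE1 lay at 0.34 ± 0.24.

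NE2 ran from −1.18 on array 2.1 to 1.47 on array 2.3, and the other 5 arrays lay between −0.28 and 0.37. Its estimate was 0.12 ± 0.22 (95% interval −0.39 to 0.63). NE3 was high on arrays 1.3 (1.91) and 2.1 (1.71) and low on 2.4 (−1.39), with an estimate of 0.32 ± 0.39 (95% interval −0.57 to 1.22). On the genomic Rad21 arrays alone NE3 lay at 0.97, which rests on array 1.3, since arrays 1.1 and 1.2 gave −0.04 and 0.12. Array 1.3 is the only one of that set with the cleaved sample in Cy3, so a dye term fits its value exactly. On the transgenic Rad21 arrays alone NE3 lay at 0.13. The intervals over all arrays reach up to 0.63 for NE2 and 1.22 for NE3. On array 2.2 the value of NE3, 0.469815, was identical to that of a probe of the basement membrane gene wb. The related genes CG31371 and CG9698 shared 1.23503 on that array. Such values were not limited to array 2.2. On array 1.1 CG9698 and Loxl1 shared −0.188533, and on array 2.4 the related CG31021 and the gene rib shared −0.584298. Whether such shared values mark dim spots was not tested.

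The members share a position that their names do not use. All 8 lie on chromosome arm 3R, in the order EFB, SG2, MP, NE1, SG1, NE2, NE3 and PV in the RefSeq gene table of the Release 6 assembly. From EFB to PV the table lists 35 genes, 29 of them protein-coding, and 24 of the 35 had a probe. Between SG2 and SG1 lie 3 genes, MP, NE1 and the related CG31371 (0.13 ± 0.35), so the 2 gland genes with the like pattern are not direct neighbours. MP and NE1, which lie between them, were at −0.33 and −0.61 on array 1.1 and at 0.74 and 1.34 on array 1.3. SG1 and SG2 stood above 2 on both of these arrays. The cleaved sample carried Cy5 on array 1.1 and Cy3 on array 1.3, and NE1 divided by dye. Over all 7 arrays, r with SG1 was −0.072 for MP and 0.336 for NE1. With SG2 it was −0.202 and 0.129, and none of these passed the permutation test. The cause of these patterns was not tested.

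Genes in and beside the stretch were mostly near 0. Of 21 probes for genes other than members, 1 was positive past the test and 1 negative, against 7.95% of all probes, and their median was 0.09. The positive one was CG2246 at 0.49 ± 0.12 (adjusted p = 0.0487 with limma) between NE2 and NE3 on the arm. The negative one was a probe of aralar1, a mitochondrial carrier gene, at −0.73 ± 0.16 (adjusted p = 0.0280), the third gene before EFB, whose other probe lay at −0.54 ± 0.19. The genes nearest to EFB did not pass: CDase, a ceramidase gene, lay at 0.61 ± 0.27 and spdo, a regulator of Notch signalling, at 0.27 ± 0.17. The call of CG2246 was lost without any single array (adjusted p up to 0.135 with limma), and that of aralar1 was lost in 5 of 7 such fits (adjusted p up to 0.0985).

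**Figure D3:**
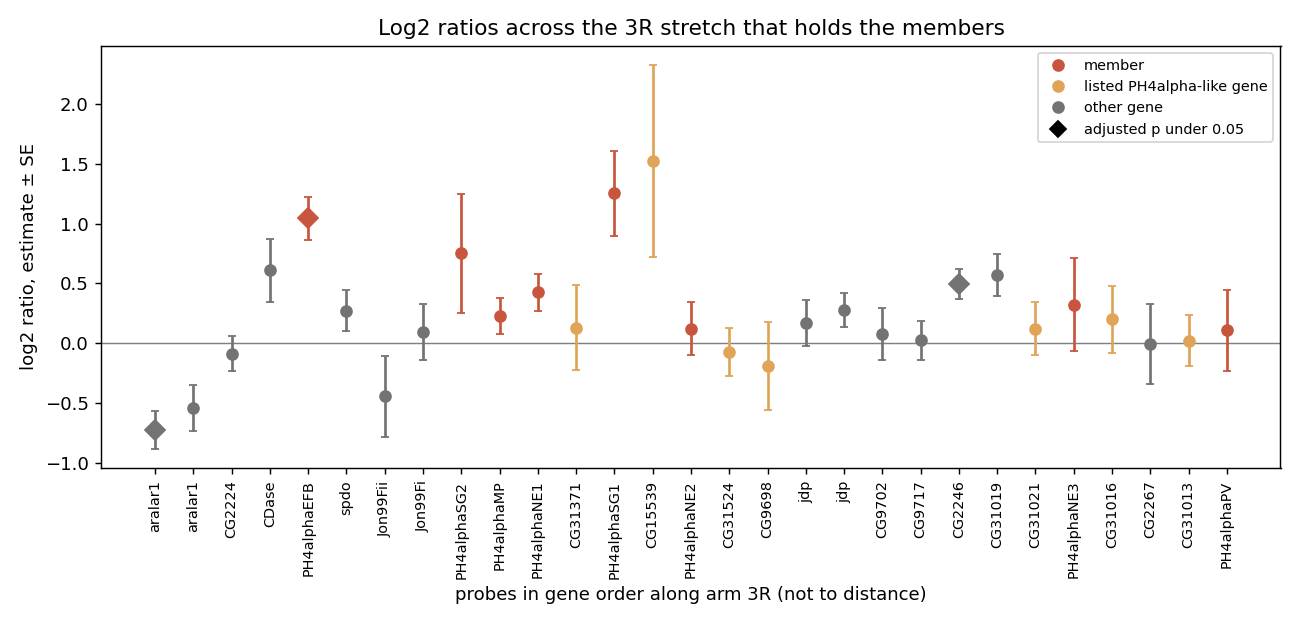
Limma estimate of the log2 ratio with its SE (y axis) for each probe in gene order along arm 3R (x axis, not to distance), from the third gene before EFB to PV. Diamonds mark probes past the test, which are EFB, CG2246 and 1 probe of aralar1.

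Other genes listed as related to the alpha subunits gave no call. Of 18 such genes 15 had a probe, 0 passed the test (limma, with 7.95% called over all probes), and the median was 0.05. CG15539, which follows SG1 on the arm, had the highest estimate of this list at 1.52 ± 0.80, set by arrays 2.1 (6.44) and 1.3 (3.29), while its other 5 arrays lay between 0.06 and 0.56. CG15864 stood out on array 1.3 alone (3.82). Probes of related genes may share signal where the sequences are alike, and the probe sequences were not used here.

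The beta subunit gene Pdi was lower by estimate but did not pass, at −0.54 ± 0.15 (adjusted p = 0.0658 with limma). Among 8 genes for the beta subunit, other protein disulfide isomerases and redox enzymes of the endoplasmic reticulum, 1 was positive past the test and 0 negative. Their median was −0.12, and 7.95% of all probes passed. The positive one was wbl, which encodes a protein of the disulfide isomerase family needed for dorsoventral patterning of the embryo, at 4.24 ± 0.21 (adjusted p = 9.12e-05 with limma). Its log2 ratio was 3.34, 4.59 and 3.80 on the genomic Rad21 arrays and 3.90, 3.94, 4.83 and 4.98 on the transgenic ones. The oxidase gene Ero1L (−0.95 ± 0.57), ERp44 (−0.46 ± 0.22), CaBP1 (−0.19 ± 0.30) and ERp60 (−0.05 ± 0.27) did not pass.

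The enzyme modifies collagens, and 2 of 16 probes for their genes and their processing passed, beside 7.95% of all probes. The collagen IV chain genes Col4a1 and vkg lay at 0.05 ± 0.28 and, for 2 probes of vkg, at 0.44 ± 0.23 and −0.15 ± 0.30. The former passed without array 2.3 (adjusted p = 0.0392 with limma). Mp, the collagen XV/XVIII gene, was negative past the test for 1 probe, at −1.74 ± 0.25 (adjusted p = 0.00667 with limma, negative on 7 of 7 arrays), and at −0.64 ± 0.23 for the other (adjusted p = 0.150). Among these probes, of 13 genes, Mp was the 1 negative call and Rab10, a small GTPase gene known for the sorting of basement membrane proteins, the 1 positive (0.55 ± 0.13, adjusted p = 0.0370), with a median of −0.01. The call of Rab10 was lost without any single array except 2.3, and with median centring, a set term or no dye term. The lysyl hydroxylase gene Plod lay at 0.54 ± 0.24 and did not pass.

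In 10 probes for 9 other basement membrane and receptor genes, 2 were positive past the test and 0 negative (median 0.12), beside 7.95% of all probes called. They were Dg, the laminin receptor dystroglycan (0.93 ± 0.17, adjusted p = 0.0154 with limma, lost without array 2.4), and mys, the beta integrin subunit (0.79 ± 0.14, adjusted p = 0.0136). The laminin chain genes LanB1 and LanB2 lay at −0.45 ± 0.12 and −0.45 ± 0.16 and did not pass. Of 5 probes for the hydroxylase branch that acts on the hypoxia factor (Hph, sima, tgo and Vhl), 0 passed in limma (Vhl did without array 2.3, adjusted p = 0.0418), and the median was −0.10. Of 5 measured regulators of the SG genes, sage was negative past the test (−1.13 ± 0.17, adjusted p = 0.00844 with limma, lost with arrays scaled), while fkh lay at −0.01 ± 0.25. SG1 and SG2 had positive estimates, neither past the test, beside a negative call for sage and no call for fkh. Whether these are linked was not tested.

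**Figure D4:**
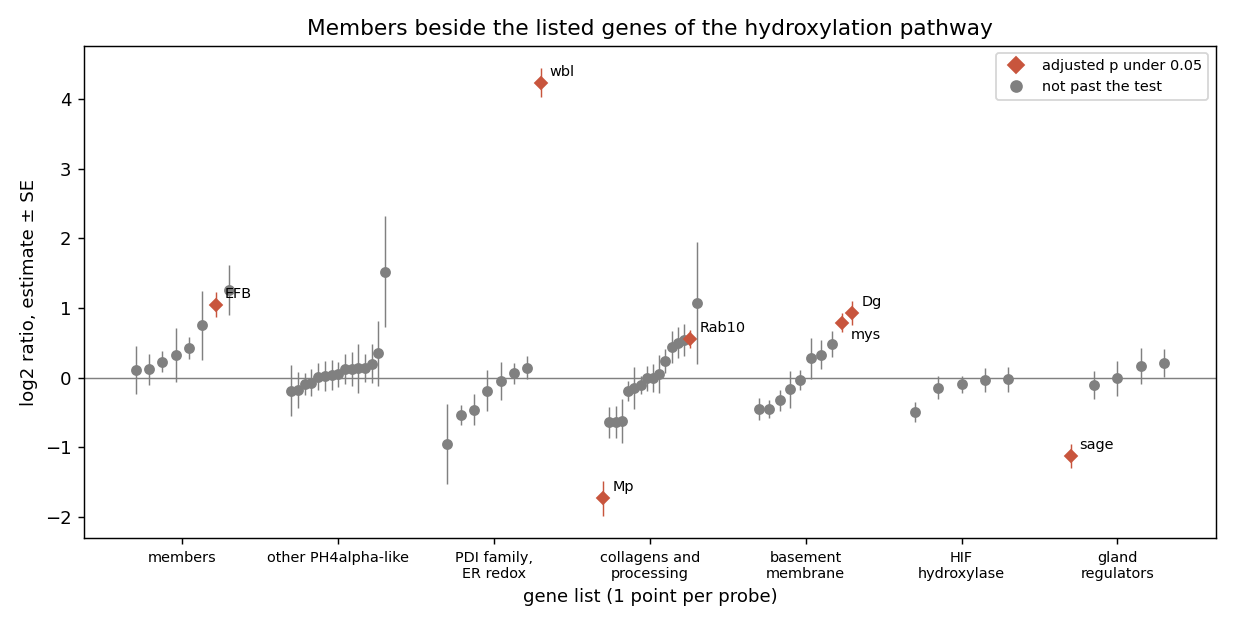
Limma estimate of the log2 ratio with its SE (y axis) for every probe of the members and of the listed genes of the hydroxylation pathway (x axis, 1 group per list). Red diamonds are past the test; wbl at 4.24 and Mp at −1.74 are the farthest from 0.

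Markers of tissues that could come with the gland are read beside the 7.95% called over all probes (4.15% positive and 3.8% negative). For hemocytes 0 of 11 probes passed (limma, median 0.06), for cuticle, trachea and mouthparts 0 of 14 (0.08), for gut and proventriculus 1 of 14, the maltase gene Mal-A6 at −1.39 ± 0.20 (−0.24), and for muscle 2 of 8, both of TpnC73F (−1.15 ± 0.20 and −1.23 ± 0.24, median −0.12, both lost without array 2.4 and with arrays scaled, the latter also without 1.1, 1.2, 2.2 or 2.3). Of 11 gland probes 3 were negative past the test, Sgs1 at −6.21 ± 0.31, sage and Eig71Ee (−0.80 ± 0.20, lost without any array except 1.1), and 0 were positive, with a median of −0.15. Sgs5 (−1.06 ± 0.29) passed without array 2.3 (adjusted p = 0.0489 with limma). The SG members had positive estimates, as had ng1 (0.89 ± 1.49), ng2 (1.03 ± 0.94), ng3 (0.66 ± 0.83) and ng4 (0.10 ± 0.25), none past the test, and the 3 called gland markers were negative.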

How the data were processed

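Per the labels, the authors deposited 1 log ratio per probe and array, and these values were taken to be log2. How spots were corrected, scaled, filtered or averaged, and the log base, was not given in the sources used here. A natural log is unlikely, since 2 values lie above 11.1, the largest such ratio of 16-bit intensities, but base 2 remains an assumption. Arrays of opposite dye orientation correlated positively (median r = 0.27 over 12 pairs, lowest 0.011), so ratios were taken as already turned by the authors to 1 direction. By the channel labels, glands with cleaved Rad21 were labelled with Cy5 on 4 arrays and with Cy3 on 3, while the design text counts them the other way round.

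Probes were named from the platform annotation, updated through the RefSeq gene table of Release 6 (12658 probes with 1 symbol, 96 with several, 1815 with none). Each probe was fitted with limma 3.58.1 in R 4.3.3 (lmFit, eBayes, a gene-wise dye term, 5 residual and 3.04 prior degrees of freedom) with Benjamini-Hochberg adjustment over all probes. The script was tested on simulated data. The set difference used an effect for each set. Named genes were all members, listed genes past the test, the 5 most correlated genes of SG1 and of SG2, and neighbours on the arm. Further genes are named with values for their role in the pathway, chosen with the values seen. The protein match planned to extend the list of related genes was not run. Members and lists were chosen with earlier results of these data known. The design text calls the 7 pairs independent biological samples, and the number of arrays limits the precision.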

Additional observations from a re-analysis of the deposited data

How the results depend on the processing

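The number of probes called over all was 1158, and it was 389 at an adjusted p under 0.01, 2781 on the genomic Rad21 arrays alone and 39 on the transgenic ones alone, and 515 to 1157 without single arrays (724 without array 1.1, 578 without 1.2, 661 without 2.1 and 515 without 2.4). The set difference gave 0 calls, and 1 with array quality weights or no dye term. Array weights were taken where their fit stopped short of its tolerance. On the genomic Rad21 arrays alone (limma), SG1 lay at 1.91, SG2 at 1.97 and NE3 at 0.97, while PV lay at −0.031. On the transgenic arrays alone SG2 lay at −0.18, and EFB at 0.92 did not pass. EFB (1.04) was not called at an adjusted p under 0.01. SG1 passed with array quality weights (1.5), a set term (1.36) or without array 2.2, and PV (−0.064) and NE3 (−0.048) changed sign with weights. Without single arrays the estimates ran from 1.01 to 1.52 for SG1, 0.44 to 1.14 for SG2, 0.88 to 1.18 for EFB, 0.15 to 0.28 for MP, −0.17 to 0.31 for PV, 0.34 to 0.50 for NE1, −0.089 to 0.26 for NE2 and −0.14 to 0.69 for NE3. The set differences ran from 0.80 to 1.60 for SG1, 1.67 to 2.62 for SG2, −0.16 to 0.58 for EFB, −0.45 to 0.10 for MP, −0.98 to 0.45 for PV, −0.45 to 0.13 for NE1, −0.31 to 0.66 for NE2 and −1.06 to 1.16 for NE3. With arrays scaled the set difference was −0.049 for NE2, 0.014 for NE1, 1.02 for EFB and 0.79 for NE3, and that of NE2 −0.11 without the dye term. SG1 minus SG2 ran from 0.36 to 0.59, and its set difference from −1.09 to −0.90. The SG mean minus the others ran from 0.31 to 0.997. Array numbers 1 to 3 occur in both sets but did not pair the arrays (r of deviations 0.0327, 0.324 and −0.22). With the number as a replicate block 0 probes differed between sets, SG2 differed by 2.61 (limma adjusted p = 0.890), SG1 by 1.59 and NE2 by −0.022, and no call changed. In all, 264 recomputed values were counted as unchanged and 23 changed sign. For a tested estimate, unchanged means the same direction and side of the threshold. The 264 also include counts of called probes that moved little and the untested SG mean minus the others. A call was gained by 6 and lost by 9, 9 moved otherwise, and the causes were not tested. Gained calls include those on the genomic Rad21 arrays alone, a fit with the limit given above. The lost ones include the described set difference of SG1 minus SG2 in all 7 recomputations without a single array. Regrouping 1 array fewer cannot give an exact p under 0.05, so these losses were fixed in advance. Spot intensities were not used here, so background and dim probes could not be varied.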
